A study of Mus musculus with 44 samples.

Results

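Glucocorticoid, metallothionein and FOXO target genes were followed across liver and skeletal muscle of the same mice. The set held 10 of the 38202 genes in the count table, taken as a list of symbols known for these responses. The list was chosen with earlier results of these data known. It named *Fkbp5*, *Tsc22d3*, *Sgk1*, *Zbtb16* and *Klf15* as targets of the glucocorticoid receptor, *Mt1* and *Mt2* as metallothioneins, and *Fbxo32*, *Trim63* and *Cdkn1a* as targets of FOXO factors. All 10 symbols matched 1 Ensembl identifier each. RNA-Seq had been performed on liver and skeletal muscle of 11 wild-type (WT) and 11 *Slc16a13* knockout (KO) mice, which gave 44 libraries of poly(A)-selected RNA in 4 groups of 11. All mice were C57BL/6N males, killed at 20 weeks of age after 15 weeks of high-fat diet (HFD). The knockout was a constitutive CRISPR/Cas9 deletion of the promoter and first exons of *Slc16a13*, a lactate transporter, present in all tissues, and WT littermates served as controls. According to the methods of the study, mice were killed after an overnight fast unless stated otherwise. The labels of these samples do not give the feeding state, and no fed group or chow group was analysed here, so the levels below describe 1 nutritional state.

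Glucocorticoids such as corticosterone enter cells and bind a cytosolic receptor held in complex with heat shock protein chaperones. The bound receptor moves to the nucleus and switches on target genes, among them its own brake *Fkbp5*. In fasting, low insulin lets FOXO transcription factors enter the nucleus, and in muscle both signals converge on the ubiquitin ligases *Fbxo32* and *Trim63*, which mark muscle protein for degradation. Liver answers the same signals with amino acid catabolism and glucose output, and with metallothioneins, small proteins that bind zinc and copper.

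Libraries held between 20150712 and 35218243 counted reads. *Slc16a13* was counted 99 to 302 times in WT livers and 0 to 8 times in KO livers. In muscle it was counted 4 to 22 times in WT libraries and 11 to 40 times in those labelled KO. These muscle counts were low, and the paper describes the gene as only marginally expressed in skeletal muscle. They give no support to the genotype in muscle, and the term muscle labelled KO is used for these libraries. By PCR across the deleted exons, the paper reports loss of *Slc16a13* mRNA in several organs of knockout mice. Whether the muscle reads fell inside the deleted part cannot be read from counts of whole genes. Hepatocyte markers (8 genes, *Alb* and *Apoa1* among them) summed to at least 88700 CPM (counts scaled to a common library size) in every liver and to at most 10.8 CPM in every muscle. Markers of the skeletal muscle fibre (9 genes, *Acta1* and *Ckm* among them) summed to at least 129000 CPM in muscle and to at most 64.0 CPM in liver. In 4 KO livers (mice 532, 583, 602 and 611) the level of genes fell with their length, relative to the mean of all livers, whereas in every WT liver it rose, and results that change without these mice are given beside them. In whole tissue, fewer cells of a type and less RNA per cell cannot be told apart.

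Sequence upstream of the start was available for 8 of the 10 genes, and 4 windows are shown because they carry the hormone, metal or FOXO motifs for which these genes are known. Each is the 250 bases before a RefSeq start on the plus strand of GRCm38.p6. *Mt1* lies at chr8:94178839-94179088, *Mt2* at chr8:94172368-94172617, *Sgk1* at chr10:21993640-21993889 and *Trim63* at chr4:134314870-134315119. Capitals mark the metal response element core (TGCACNC or TGCGCNC, on either strand) in *Mt1* and *Mt2*, the glucocorticoid response element palindrome (AGAACA, 3 free bases and TGTTCT) in *Sgk1*, and, in *Trim63*, 1 arm of that palindrome (AGAACA, here on the minus strand) joined directly to a FOXO site (TGTTTAC).
Mt1: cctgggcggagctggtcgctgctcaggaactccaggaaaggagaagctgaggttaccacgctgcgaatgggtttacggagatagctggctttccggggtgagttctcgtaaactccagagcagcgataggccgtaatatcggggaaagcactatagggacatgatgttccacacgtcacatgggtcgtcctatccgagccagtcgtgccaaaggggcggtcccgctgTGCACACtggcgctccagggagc
Mt2: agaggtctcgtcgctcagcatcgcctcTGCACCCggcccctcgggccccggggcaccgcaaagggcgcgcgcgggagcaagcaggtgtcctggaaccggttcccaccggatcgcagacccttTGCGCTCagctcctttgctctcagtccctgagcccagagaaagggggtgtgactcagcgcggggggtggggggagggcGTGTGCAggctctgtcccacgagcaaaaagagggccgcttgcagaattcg
Sgk1: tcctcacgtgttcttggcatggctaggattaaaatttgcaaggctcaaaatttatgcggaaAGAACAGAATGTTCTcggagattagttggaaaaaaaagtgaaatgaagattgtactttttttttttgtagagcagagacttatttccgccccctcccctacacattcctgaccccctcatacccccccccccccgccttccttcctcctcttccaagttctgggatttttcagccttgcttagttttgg
Trim63: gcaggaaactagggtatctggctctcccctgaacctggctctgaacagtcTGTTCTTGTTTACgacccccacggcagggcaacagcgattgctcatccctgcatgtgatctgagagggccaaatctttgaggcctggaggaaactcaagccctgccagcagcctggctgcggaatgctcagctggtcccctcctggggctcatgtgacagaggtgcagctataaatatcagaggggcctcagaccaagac
The palindrome was found in 3 of 32851 mouse promoter windows of 300 bases (0.00913%), and in *Sgk1* it lies at 1 of 6 annotated starts, at positions -189 to -175 counted from it. The hexamer AGAACA alone, on either strand, was in 19% of all windows, the FOXO site in 3.65% and at least 1 metal response element core in 25.7%. *Mt1* held 3 such cores in its 300 bases and *Mt2* held 4, of which 1 and 3 fall in the bases printed, while 1.97% of all windows held 3 or more. The windows not shown held few of these motifs. Those of *Fkbp5* and *Cdkn1a* held none, and that of *Klf15* held 1 metal response element core and no glucocorticoid or FOXO site. For *Tsc22d3* the only match was 1 hexamer AGAACA at 1 of its starts. Among the other starts of *Sgk1*, some windows held 1 hexamer AGAACA and another held 1 metal response element core. These matches describe letters in a window and not binding.

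All 10 genes differed between liver and muscle in WT mice (edgeR's quasi-likelihood test with the mouse as block, Benjamini-Hochberg adjusted p under 0.05), 4 higher in liver and 6 higher in muscle, against 44% and 44.2% of all genes. Of the 14739 genes tested 88.2% were called, so a call between these tissues is no result about the 10 genes, and the size of each difference and the overlap of the groups are described instead. In KO mice the 10 genes were called again, in the same directions, against 89.0% of all genes, 44.2% higher in liver and 44.8% higher in muscle. The median log2 fold change of liver over muscle was -1.13 for the 10 genes in WT mice and -0.77 in KO mice, beside 0.0012 and -0.0161 for all genes tested. When a change of more than 2-fold was asked for, 7 of the 10 passed in each genotype, against 51.4% and 51.9% of all genes. The CPM ranges of liver and muscle did not overlap for 5 of the 10 in either genotype, against 69.8% of all genes in WT and 60.0% in KO mice.

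**Figure D1:**
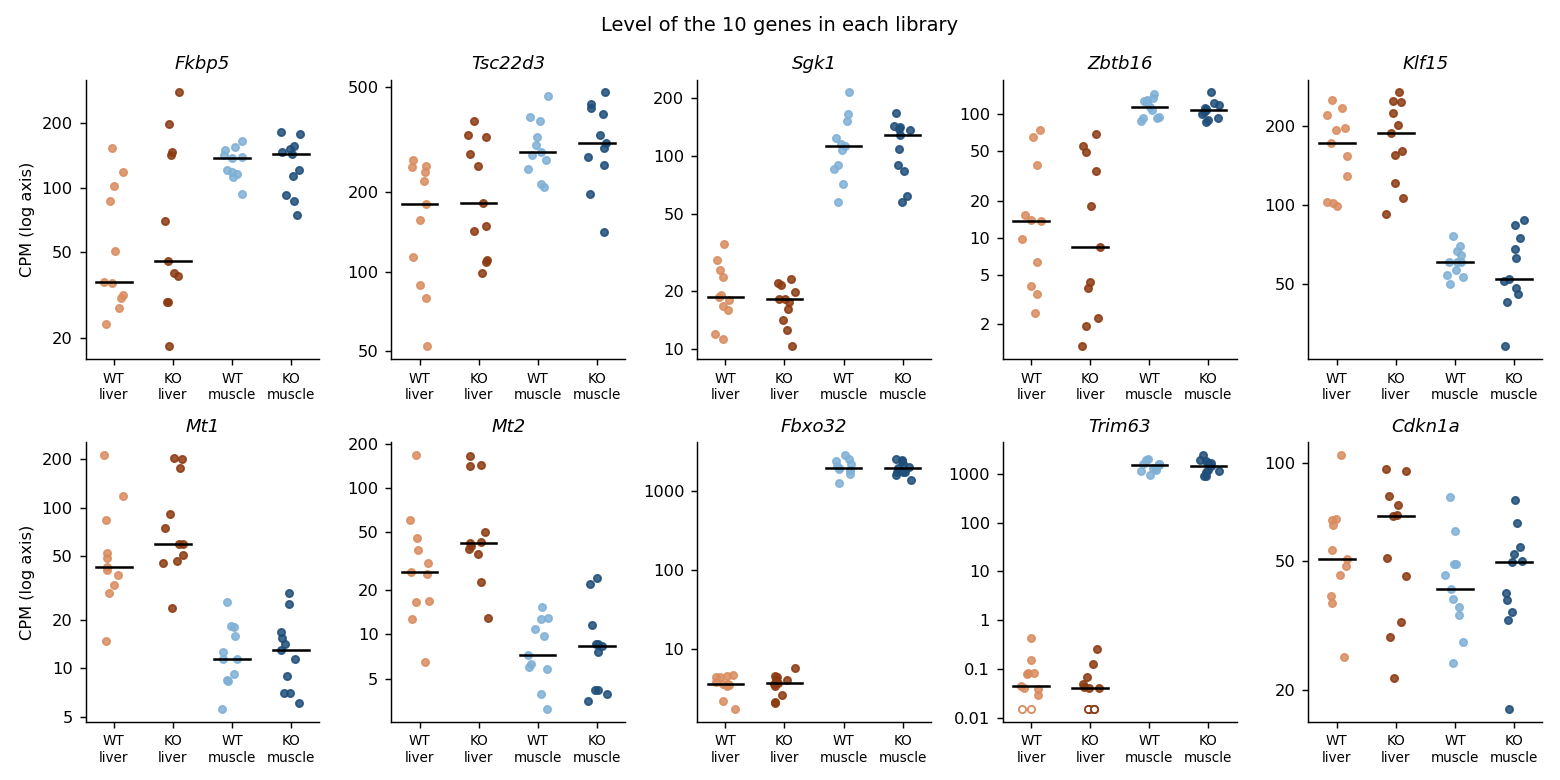
Level of each of the 10 genes in the 44 libraries, in CPM on a log axis that differs between panels. Points are libraries (11 per group), black lines are medians, and open points at the bottom are livers without a read on *Trim63*. *Sgk1*, *Zbtb16*, *Fbxo32*, *Trim63* and *Klf15* show no overlap between liver and muscle, while *Fkbp5*, *Tsc22d3*, *Mt1*, *Mt2* and *Cdkn1a* overlap.

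*Fkbp5*, the co-chaperone that lowers the affinity of the glucocorticoid receptor for its hormone, was more widely spread in liver than in muscle. The standard deviation of its log2 CPM was 0.966 in WT and 1.30 in KO livers, above 98.8% and 99.0% of the genes tested, beside 0.238 in WT muscle and 0.433 in muscle labelled KO, above 67.3% and 85.7%. In WT mice it lay between 23.3 and 154 CPM in liver (median 36.3) and between 93.5 and 165 CPM in muscle (median 139). In KO mice it lay between 18.2 and 279 CPM in liver (median 45.5) and between 74.5 and 182 CPM in muscle labelled KO (median 144). The ranges of liver and muscle overlapped, and *Fkbp5* was higher in liver than in the muscle of the same animal in 2 of 11 WT mice (536 and 567) and 3 of 11 KO mice (568, 570 and 583). On average it was 2.52-fold higher in muscle of WT mice (log2 fold change of liver over muscle -1.34, standard error 0.30, adjusted p = 0.00024). In KO mice the log2 fold change was -0.92 (standard error 0.30, adjusted p = 0.0062), and without the mouse as block it was -0.46 (adjusted p = 0.20).

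*Tsc22d3* encodes the anti-inflammatory glucocorticoid-induced leucine zipper. Of the 5 genes listed in the opening as targets of the glucocorticoid receptor, it had the highest median level per gene length in both tissues. In WT mice it ranged from 52.1 to 265 CPM in liver (median 180) and from 210 to 464 CPM in muscle (median 285). In KO mice the ranges were 98.7 to 372 CPM (median 183) and 142 to 479 CPM (median 307). The tissues overlapped, but the muscle was higher in 11 of 11 WT mice and in 10 of 11 KO mice. The log2 fold change of liver over muscle was -0.93 in WT mice (standard error 0.18, adjusted p = 4.6e-05) and -0.63 in KO mice (standard error 0.18, adjusted p = 0.0026).

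*Sgk1*, a kinase induced by serum and glucocorticoids that acts on ion transport and cell survival, separated the tissues without overlap. Livers held 11.2 to 35 CPM in WT mice (median 18.7) and 10.3 to 22.9 CPM in KO mice (median 18.1). Muscles held 58.0 to 215 CPM in WT mice (median 113) and 58.2 to 167 CPM in those labelled KO (median 128). The gene was 5.63-fold higher in muscle of WT mice and 6.23-fold higher in muscle of KO mice (log2 fold changes of liver over muscle -2.49 and -2.64, standard error 0.16 each, adjusted p = 6.2e-14 and 2.0e-14). Its paralogue *Sgk2* went the other way, with 80.0 to 112 CPM in WT livers and at most 0.0452 CPM in WT muscle, and is named here after its values were seen.

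*Zbtb16* is a zinc finger transcription factor and one of the genes most readily induced by glucocorticoids in many cell types. It was the most variable of the 10 in liver and among the steadiest of the 10 in muscle. In WT livers it ranged from 2.45 to 74.1 CPM (median 13.7), a 30.3-fold range, and in KO livers from 1.32 to 69.6 CPM (median 8.46), a 52.6-fold range. In muscle it ranged from 88.6 to 146 CPM in WT mice (median 114) and from 86.7 to 150 CPM in those labelled KO (median 109), so every muscle lay above every liver. The standard deviation of log2 CPM was 1.66 in WT livers and 2.10 in KO livers, higher than in 99.9% of the genes tested in each group. In WT muscle it was 0.26 and in muscle labelled KO 0.23, still higher than in 70.7% and 61.3% of the genes tested. The log2 fold change of liver over muscle was -3.10 in WT mice (standard error 0.56, adjusted p = 1.4e-05) and -3.27 in KO mice (standard error 0.58, adjusted p = 1.3e-05).

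*Klf15*, a Krüppel-like factor that drives amino acid catabolism and gluconeogenesis, was higher in liver. The other genes listed in the opening as targets of the glucocorticoid receptor were higher in muscle. WT livers held 99.0 to 249 CPM (median 172) and KO livers 92.8 to 267 CPM (median 188). WT muscle held 50.2 to 76.5 CPM (median 60.9) and muscle labelled KO 29.1 to 87.4 CPM (median 52.5). The groups did not overlap within either genotype, and the log2 fold change of liver over muscle was 1.41 in WT mice (standard error 0.13, adjusted p = 1.1e-10) and 1.65 in KO mice (standard error 0.13, adjusted p = 5.7e-12). Of 7 tested genes from a list of KLF15 targets, 5 were higher and 2 lower in liver of WT mice, against 44% and 44.2% of all genes, with *Tat*, which degrades tyrosine, at a median of 1400 CPM in liver and 0 in muscle, and *Slc2a4*, the insulin-responsive glucose transporter, at 0.168 CPM in liver and 469 CPM in muscle.

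**Figure D2:**
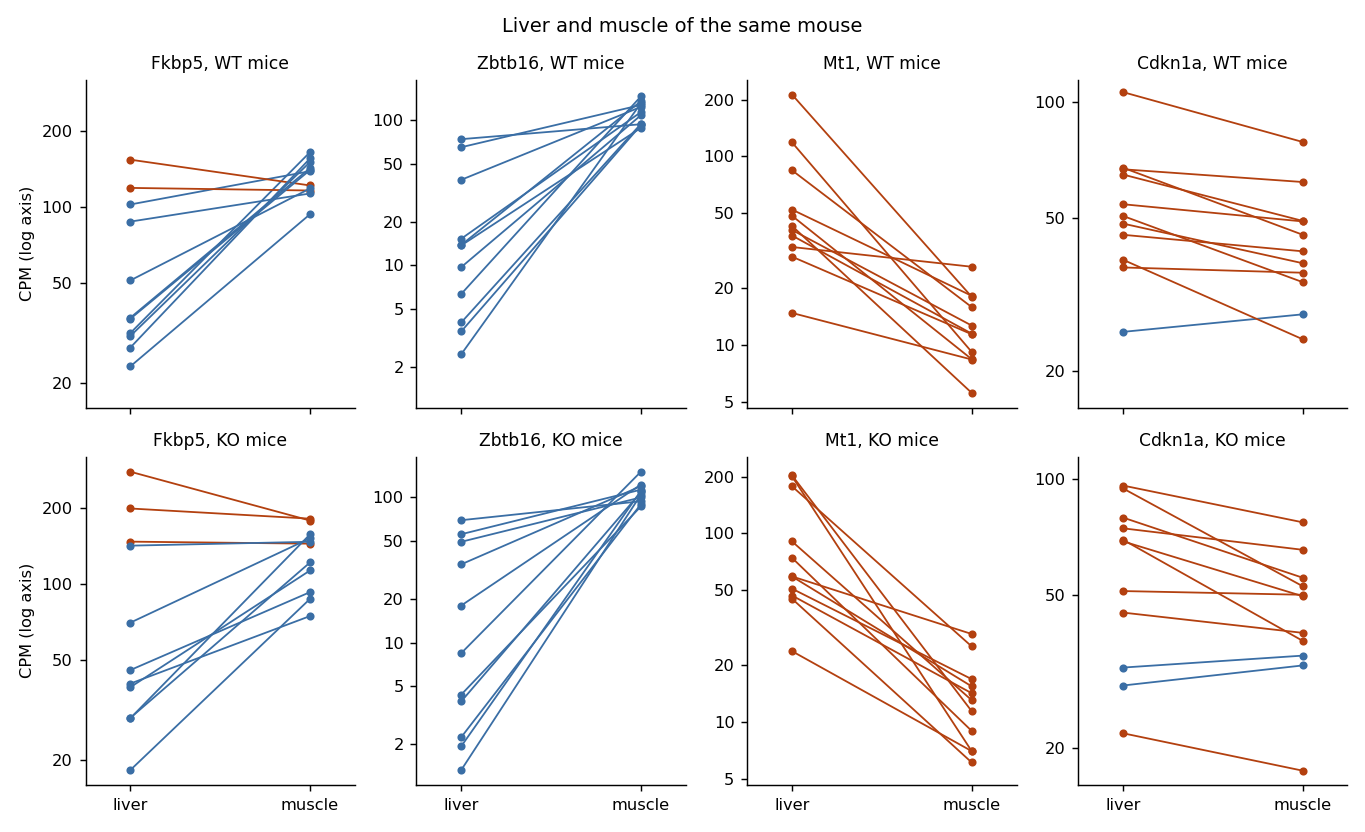
Levels of *Fkbp5*, *Zbtb16*, *Mt1* and *Cdkn1a* in liver and muscle of each mouse, in CPM on a log axis, with WT mice above and KO mice below. Each line joins the 2 tissues of 1 mouse and is red where liver was higher and blue where muscle was higher. Lines of *Zbtb16* all rise to muscle, those of *Mt1* all fall, and those of *Fkbp5* are red in 2 WT and 3 KO mice.

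*Mt1* and *Mt2*, whose neighbouring promoters are printed above, were higher in liver in 11 of 11 mice of each genotype. *Mt1* lay between 14.8 and 212 CPM in WT livers (median 42.8) and between 23.8 and 203 CPM in KO livers (median 59.2). In muscle it lay between 5.59 and 26 CPM in WT mice (median 11.5) and between 6.13 and 29.4 CPM in those labelled KO (median 13.1). The tissues overlapped although every mouse had more *Mt1* in its liver, and the log2 fold change was 2.06 in WT mice (standard error 0.32, adjusted p = 1.9e-06) and 2.59 in KO mice (standard error 0.33, adjusted p = 5.9e-08).

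*Mt2* showed the same pattern. It ranged from 6.48 to 167 CPM in WT livers (median 26.7) and from 12.9 to 166 CPM in KO livers (median 41.8). Muscles held 3.10 to 15.5 CPM in WT mice (median 7.18) and 3.54 to 24.1 CPM in those labelled KO (median 8.36). The log2 fold change of liver over muscle was 1.89 in WT mice (standard error 0.35, adjusted p = 2.0e-05) and 2.66 in KO mice (standard error 0.35, adjusted p = 1.2e-07). In both tissues and genotypes the spread of *Mt1* and *Mt2* between mice was larger than that of at least 96.5% of the genes tested. How reads that match both paralogues were counted is not given in the sources used here.

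*Fbxo32* and *Trim63*, the F-box and RING ubiquitin ligases known as atrogin-1 and MuRF1, were the members with the largest difference. *Fbxo32* held 1275 to 2883 CPM in WT muscle (median 1973) and 1383 to 2554 CPM in muscle labelled KO (median 1990), beside 1.72 to 4.71 CPM in WT livers (median 3.60) and 2.06 to 5.74 CPM in KO livers (median 3.69). Summed over the 11 livers it was counted 1008 times in WT and 969 times in KO mice. Muscle exceeded liver by a ratio of summed counts per read of 584 in WT mice (exact 95% Poisson interval 549 to 622) and 591 in KO mice (555 to 630), intervals that cover counting error only. The adjusted p was 6.4e-23 and 6.8e-23.

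*Trim63* held 947 to 2020 CPM in WT muscle (median 1537) and 888 to 2424 CPM in muscle labelled KO (median 1430). In liver it was close to absent, with 24 reads over the 11 WT libraries and 16 over the 11 KO libraries, and with no read in 2 WT and 4 KO livers. The ratio of muscle over liver was 17450 in WT mice (exact 95% Poisson interval 11730 to 27240) and 26130 in KO mice (16090 to 45710). As for *Fbxo32*, these intervals cover counting error only and not the spread between mice. The edgeR adjusted p was 4.3e-23 in both genotypes. The liver with most *Trim63*, WT mouse 516 with 10 reads, was also the liver with most fibre marker RNA (64.0 CPM against 3.43 to 11.8 CPM in the other WT livers). Among KO livers, mouse 532 had the most of both, with 7 reads and 23.2 CPM. Whether these reads came from muscle RNA in the liver samples was not tested.

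*Cdkn1a*, the cyclin-dependent kinase inhibitor p21, was nearly level between the tissues. It ranged from 25.3 to 106 CPM in WT livers (median 50.5) and from 24.2 to 78.6 CPM in WT muscle (median 40.9). KO livers held 21.9 to 96.0 CPM (median 68.8) and muscle labelled KO 17.5 to 77.1 CPM (median 49.6). The groups overlapped almost fully, yet liver exceeded muscle in 10 of 11 WT mice and 9 of 11 KO mice. The log2 fold change was 0.32 in WT mice (standard error 0.09, adjusted p = 0.0020) and 0.34 in KO mice (standard error 0.09, adjusted p = 0.0010). The call depended on the processing. Without the mouse as block the adjusted p was 0.17 and 0.10, and with the dependence on gene length removed from each library the direction turned, to -0.05 (adjusted p = 0.57) in WT and -0.08 (adjusted p = 0.35) in KO mice.

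**Figure D3:**
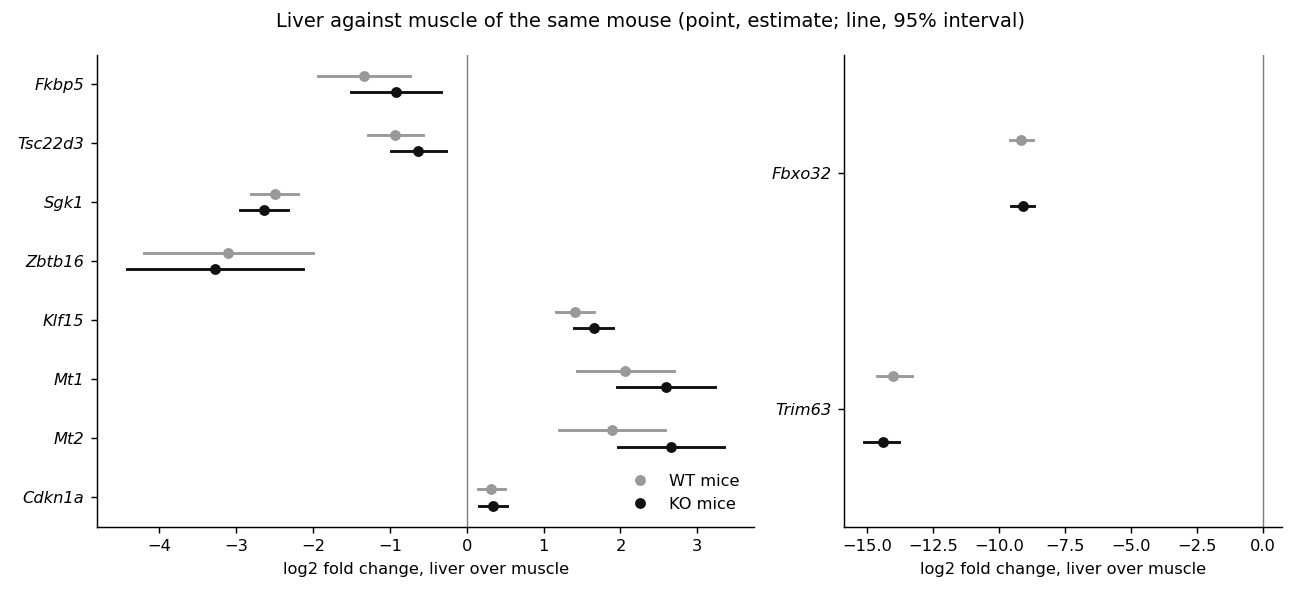
Log2 fold change of liver over muscle for the 10 genes in WT (grey) and KO mice (black), with 95% intervals from the standard error. *Fbxo32* and *Trim63* have their own axis on the right. Estimates of the genotypes lie side by side and their intervals overlap for every gene, from -14.4 for *Trim63* to 2.66 for *Mt2*.

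Levels of different genes were compared per length, with the RPKM values of the authors. The gene length behind these values varied between libraries for some genes, so the order is approximate. In WT muscle the medians were in the order *Trim63* (822 RPKM), *Fbxo32* (282), *Tsc22d3* (168), *Sgk1* (62.0) and *Fkbp5* (45.0), followed by the other 5 between 12.9 and 26.4 RPKM. The range of *Trim63* lay above that of *Fbxo32*, the range of *Tsc22d3* above that of *Sgk1*, the range of *Fkbp5* above that of *Klf15*, whereas *Fbxo32* overlapped *Tsc22d3*, *Sgk1* overlapped *Fkbp5*, and the neighbours from *Klf15* down overlapped. In WT liver the order was *Tsc22d3* (95.4 RPKM), *Mt1* (76.4), *Klf15* (71.8), *Mt2* (48.8), *Cdkn1a* (25.5), *Fkbp5* (11.3), *Sgk1* (10.7), *Zbtb16* (2.62), *Fbxo32* (0.527) and *Trim63* (0.032). All neighbours in the liver order overlapped except *Fbxo32* and *Trim63*.

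The other genes of these pathways were counted from lists chosen for their known roles. Beside each count stand 44% of all genes higher and 44.2% lower in liver of WT mice and a median log2 fold change of 0.0012, so a high share of called genes is no result about a list. Of 16 genes for the glucocorticoid receptor and hormone handling, 10 were higher and 2 lower in liver of WT mice (median log2 fold change 0.65), led by *Serpina6*, which carries corticosterone in plasma (median 121 CPM in liver, no read in muscle), and *Akr1d1*, which inactivates steroids (189 CPM in liver and a median of 0 in muscle). The receptor *Nr3c1* itself, named here after its values were seen, lay between 71.5 and 88.7 CPM in WT livers and between 86.9 and 104 CPM in WT muscle. Its log2 fold change of liver over muscle was -0.26 (standard error 0.10, adjusted p = 0.023). *Hsd11b1*, which regenerates active corticosterone and was named in the same way, lay between 332 and 550 CPM in WT livers and between 3.26 and 7.29 CPM in WT muscle.

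Of 26 further glucocorticoid targets, 15 were higher and 11 lower in liver of WT mice (median log2 fold change 0.97), where 88.2% of all genes were called. *Tat* and *Tdo2*, which degrade tyrosine and tryptophan, had the largest differences, with medians of 1400 and 1770 CPM in liver and 0 and 0.0452 CPM in muscle. Of 20 FOXO factors and FOXO targets, 7 were higher and 12 lower in liver (median -0.87), again against 44% and 44.2% of all genes. *Igfbp1*, an insulin-repressed binding protein of growth factors, had a median of 32 CPM in liver and 0 in muscle, while *Pdk4*, which holds back glucose oxidation, had 16.4 CPM in liver and 3480 CPM in muscle. Of 18 tested genes for other atrophy and muscle ubiquitin ligases, 2 were higher and 15 lower in liver (median -2.70), led by *Trim54*, a paralogue of *Trim63* with 405 CPM in muscle, and by the growth inhibitor *Mstn* with 54.1 CPM in muscle, both with a median of 0 in liver.

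Of 10 tested zinc and metallothionein genes, 8 were higher and 1 lower in liver (median 1.89), beside 44% and 44.2% of all genes here and for the lists that follow, led by the transporters *Slc30a10* (49.3 CPM in liver) and *Slc39a4* (14.2 CPM), both with a median of 0 in muscle. *Mtf1*, the factor that binds metal response elements, named after its values were seen, did not pass the edgeR test in WT mice (log2 fold change 0.02, standard error 0.06, adjusted p = 0.80). In KO mice it was called lower in liver by the same test (log2 fold change -0.21, standard error 0.06, adjusted p = 0.0037). Of 10 p53 pathway genes, which regulate *Cdkn1a* or share its regulator, 3 were higher and 4 lower in liver (median -0.19), led by *Phlda3* (1.14 CPM in liver and 256 CPM in muscle) and *Eda2r* (1.24 and 66.1 CPM). Of 15 fasting response genes of liver, 12 were higher and 3 lower in liver (median 6.89), led by the fatty acid hydroxylases *Cyp4a10* and *Cyp4a14* with 2450 and 3550 CPM in liver and at most 0.0361 CPM as a median in muscle. Of 14 tested paralogues of the members, 5 were higher and 8 lower in liver (median -0.82), led by *Trim54* and *Trim55*, the latter with 43.6 CPM in muscle and no read in WT livers.

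KO against WT was the comparison of the study, which asked what the loss of *Slc16a13* does to mice on HFD. None of the 9 genes of the set that could be tested in liver was called (0 of 9, against 0.0231% of 13005 genes). The adjusted p of the 9 ranged from 0.43 for *Mt2* to 0.99 for *Zbtb16* (edgeR), and 0 had an unadjusted p under 0.05. DESeq2 also called 0 of the 9, with adjusted p from 0.409 to 0.992. *Trim63* did not reach the count minimum in liver. The largest estimates were 0.73 for *Mt2* (standard error 0.49), 0.57 for *Fkbp5* (0.46) and 0.54 for *Mt1* (0.42), all higher in KO livers on the log2 scale. The 95% interval of *Mt2* ran from -0.23 to 1.68 and that of *Zbtb16* from -1.35 to 1.37, and for *Fkbp5*, *Mt1*, *Mt2* and *Zbtb16* a difference of 2-fold was inside the interval. The intervals of *Sgk1* (-0.56 to 0.13), *Cdkn1a* (-0.35 to 0.62), *Klf15* (-0.27 to 0.51), *Fbxo32* (-0.34 to 0.35) and *Tsc22d3* (-0.26 to 0.88) were narrower.

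In muscle labelled KO against WT muscle, 0 of the 10 genes were called (0.00754% of 13266 genes were) and 0 had an unadjusted p under 0.05. Estimates lay between -0.07 for *Zbtb16* and 0.18 for *Mt2* on the log2 scale, with adjusted p from 0.865 to 0.998. The intervals were tight for *Zbtb16* (-0.25 to 0.12), *Fbxo32* (-0.29 to 0.18), *Fkbp5* (-0.28 to 0.27), *Klf15* (-0.34 to 0.22) and *Trim63* (-0.32 to 0.32), and wider for *Mt2* (-0.52 to 0.88). None of the other genes on the pathway lists was called in either tissue. The genes called were *Mup5*, *Scp2-ps2* and *Slc16a13* in liver and *Slc16a11* in muscle. *Slc16a11*, which the paper places next to *Slc16a13* in the genome, was higher in muscle labelled KO. Whether this reflects the deletion was not tested. Whether the difference between liver and muscle itself depended on genotype was tested as an interaction, in which 0 of the 10 genes were called (0.00678% of 14739 genes were). The estimates ran from -0.47 for *Trim63* to 0.77 for *Mt2*, with adjusted p from 0.40 to 0.94.

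**Figure D4:**
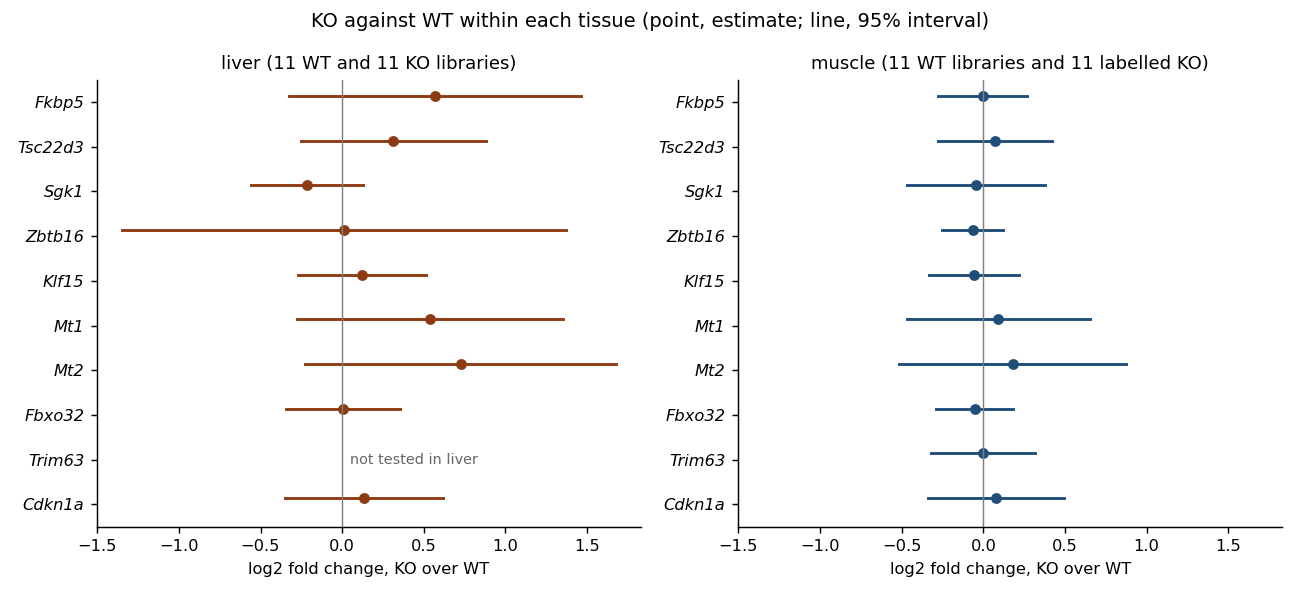
Log2 fold change of KO over WT in liver (left) and in muscle (right) for the 10 genes, with 95% intervals from the standard error. All intervals include 0. Among the genes tested in both tissues, they are wider in liver than in muscle for all but *Sgk1*.

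Since several of the genes varied between mice far more than between genotypes, their levels were compared across the 22 mice, with the mean of each genotype removed. In all, 30 relations were tested by two-sided permutation tests with 100000 resamples within genotype, and 9 passed after Benjamini-Hochberg adjustment. *Mt1* and *Mt2* followed each other closely in liver (r = 0.976, rho = 0.939) and in muscle (r = 0.955, rho = 0.939), with the smallest adjusted p the permutations can give (0.0001 for each). In liver the 4 highest *Mt2* values stood apart (141 CPM or more, against 60.5 CPM or less), and among the 18 livers below this step r was still 0.947 (permutation p = 1e-05, the smallest they can give). This split was chosen after seeing the data.

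*Zbtb16* followed *Fkbp5* across livers (r = 0.837, adjusted permutation p = 0.0003; rho = 0.750, adjusted p = 0.0013), with r = 0.818 within WT and 0.849 within KO mice. Without the 2 livers farthest from the median of *Fkbp5* r was 0.785 (permutation p = 0.00016), and without the 4 livers short of reads on long genes it was 0.877. *Fkbp5* levels in liver had no gap (the largest step between neighbouring livers was 1.4-fold). A group of 7 livers, from WT mice 536, 537 and 567 and KO mice 568, 570, 583 and 588, held 34.6 to 74.1 CPM of *Zbtb16* and 87.4 to 279 CPM of *Fkbp5*. The other 15 livers held at most 18 CPM of *Zbtb16*, and at most 70.2 CPM of *Fkbp5* except for 102 CPM in WT mouse 516. Within these 15 livers r was 0.334 and within the 7 it was 0.438 (permutation p = 0.244 and 0.377), so no relation was detectable inside either group. This split was chosen after seeing the data and lowers r by construction, since it cuts the range of *Zbtb16*. For *Tsc22d3* (r = 0.132), *Mt1* (r = -0.134) and *Mt2* (r = -0.0575) no relation to *Fkbp5* was detectable in liver, with adjusted permutation p from 0.645 to 0.802. For *Fbxo32* r was 0.321 (adjusted permutation p = 0.238). For *Cdkn1a* r was 0.453 (adjusted permutation p = 0.11) and rho 0.493 (adjusted permutation p = 0.0791), with r = 0.795 within KO and -0.154 within WT mice, a difference that was not tested. For *Sgk1* r was -0.512 (adjusted permutation p = 0.039), but rho was -0.438 with an adjusted permutation p of 0.092, and without the 4 livers short of long-gene reads the adjusted permutation p of r was 0.12. For *Klf15* r was 0.516 (adjusted permutation p = 0.056) and rho was 0.562 (adjusted permutation p = 0.033).

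In muscle, *Trim63* followed *Fkbp5* (r = 0.768, adjusted permutation p = 0.00084; rho = 0.820, adjusted permutation p = 0.00038). The value was 0.606 within WT mice and 0.834 within mice labelled KO, and it was 0.792 without the 2 muscles farthest from the median of *Fkbp5* (permutation p = 7e-05). *Fbxo32* also followed *Fkbp5* in muscle (r = 0.541, adjusted permutation p = 0.031; rho = 0.593, adjusted permutation p = 0.022), although without the 4 KO mice with livers short of long-gene reads r was 0.474 and the adjusted permutation p was 0.12. *Klf15* in muscle had r = 0.566 with *Fkbp5* (adjusted permutation p = 0.060), with r = 0.744 in mice labelled KO and -0.222 in WT mice, a difference that was not tested. In muscle *Zbtb16* had r = 0.396 with *Fkbp5* (adjusted permutation p = 0.13), within a range of 86.7 to 150 CPM over all muscles. The remaining relations to *Fkbp5* in muscle did not pass either. They were *Cdkn1a* (r = 0.459), *Tsc22d3* (0.397), *Mt1* and *Mt2* (0.319 each) and *Sgk1* (-0.0753), with adjusted permutation p from 0.105 to 0.763. Within WT mice r was -0.0102 for *Cdkn1a* and -0.268 for *Tsc22d3*, and within mice labelled KO 0.692 and 0.654.

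**Figure D5:**
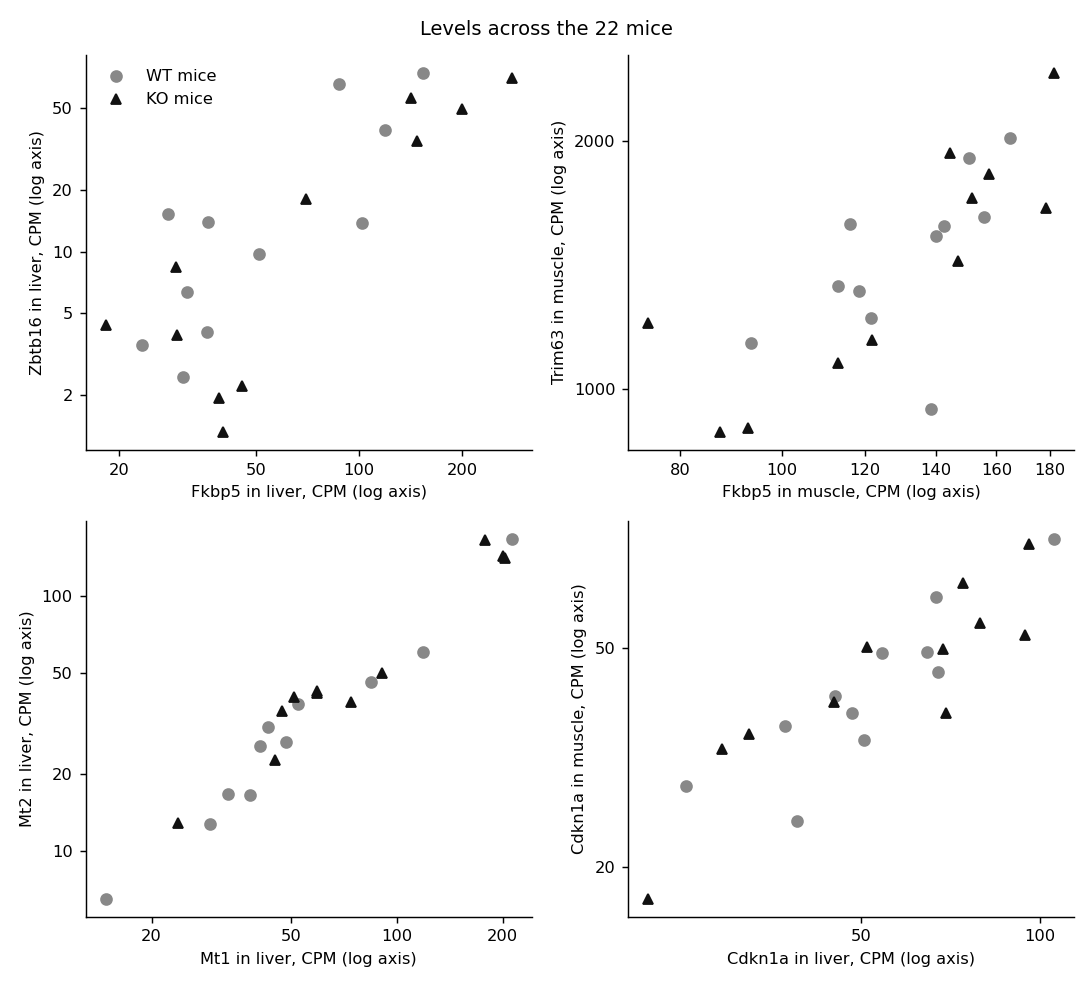
Levels across the 22 mice, in CPM on log axes, for *Zbtb16* against *Fkbp5* in liver, *Trim63* against *Fkbp5* in muscle, *Mt2* against *Mt1* in liver, and *Cdkn1a* in muscle against *Cdkn1a* in liver. Points are mice (grey circles WT, black triangles KO). The first panel shows the 7 livers high in both genes, and the last shows *Cdkn1a* rising together in both tissues.

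Each gene was then compared between liver and muscle of the same mouse. *Cdkn1a* showed the closest agreement of the 10, with r = 0.885 and rho = 0.889 over the 22 mice (adjusted permutation p = 0.0001 for each, the smallest they can give), r = 0.887 within WT and 0.885 within KO mice, and 0.831 without the 2 mice farthest from the median liver level (permutation p = 2e-05). Mouse 616 had the highest *Cdkn1a* of all livers and of all muscles (106 and 78.6 CPM), and mouse 561 the lowest of both (21.9 and 17.5 CPM). With gene length removed r was 0.889. Over the 11607 genes tested in both tissues the median r was 0.0825, and *Cdkn1a* ranked 4.

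*Tsc22d3* (r = 0.552) and *Klf15* (r = 0.568) were also related between the tissues (adjusted permutation p = 0.031 for each, rho = 0.595 and 0.602), but without the 4 KO mice with livers short of long-gene reads the adjusted permutation p was 0.058 and 0.050. *Fkbp5* had r = 0.423 between liver and muscle (adjusted permutation p = 0.14), with -0.248 in WT and 0.703 in KO mice, a difference that was not tested. *Sgk1* had r = 0.412, *Mt2* 0.336, *Mt1* 0.192, *Zbtb16* 0.101, *Fbxo32* -0.167 and *Trim63* -0.321, with adjusted permutation p from 0.14 to 0.73. The liver values of *Trim63* rest on at most 10 reads per library.

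The genes most like *Fkbp5* across mice differed between the tissues. Across the 22 livers these were *Upp2*, a uridine phosphorylase (r = 0.934), *Syvn1*, a ubiquitin ligase of the endoplasmic reticulum (0.926), *Mtss1* (0.908), *Hyou1*, a chaperone of the endoplasmic reticulum (0.907), and *St3gal5*, which makes the ganglioside GM3 (0.904). *Zbtb16* ranked 34 of the 13005 genes compared, *Klf15* 679 and *Cdkn1a* 979, and the median r of all genes was -0.00765. Across the 22 muscles the most similar genes were *Map2k3*, a kinase of the p38 pathway (r = 0.857), *Fibin* (0.811), *Nol9* (0.783), *Dctn4* (0.780) and *Stt3b* (0.777). *Trim63* followed at rank 6 of 13266, *Klf15* at 290 and *Fbxo32* at 394. These ranks describe the same libraries that the relations above use and have no test.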

How the data were processed

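Poly(A) RNA of 22 livers and 22 muscles had been made into directional libraries and sequenced as single-end reads in pools of 11 libraries, whose membership is not given. The authors deposited raw counts per gene and RPKM values (reads scaled by gene length and library size) for 44 libraries. The gene length implied by counts and RPKM was not fixed across libraries. In 45.8% of the values compared it lay over 1% from the median of the gene. That median was used here as gene length, and how the authors set the length is not given. The aligner, counter, genome build and annotation are not given in the sources used here. The members and lists were chosen with earlier results of these data known. Symbols were found for 36340 of the 38202 Ensembl identifiers in a table of gene names.

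Counts were fitted with edgeR 4.0.16 in R 4.3.3 (TMM, filterByExpr, robust quasi-likelihood test, Benjamini-Hochberg adjustment over all genes tested, threshold 0.05). Liver against muscle and its interaction with genotype were fitted with the mouse as block. KO against WT was fitted within each tissue. Intervals are normal 95% intervals from the standard error. Printed CPM are scaled by TMM over 44 libraries. Samples with the same animal number come from the same mouse, and their deviations from the group means had a mean correlation of 0.102 over 22 pairs, against -0.0097 over 220 other pairs. The ranges overlapped (-0.0267 to 0.26 against -0.239 to 0.241), and 6 of the 22 livers correlated best with the muscle of their own mouse. The pairing therefore rests on the labels. No libraries were identical.

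Alternatives were DESeq2 1.42.0, other scalings, no count filter, no block, removal of the dependence on gene length by loess, limma 3.58.1 on log2(RPKM + 0.1) or log2(RPKM + 1), and leaving out each mouse. Correlations used log2 CPM with a prior count of 2. On simulated counts with 200 genes changed by 1 on the log2 scale, the paired fit recovered 87.5% of them. Of each pathway list, the 2 genes with the largest difference in WT mice were named. Promoter windows come from RefSeq (GRCm38.p6). Their coordinates were not used with the counts.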

Additional observations from a re-analysis of the deposited data

Results flagged for a closer look

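*Slc16a13*, the deleted gene, differed between the tissues in its response to genotype. Its interaction of tissue and genotype was -6.11 on the log2 scale (standard error 0.382, edgeR adjusted p = 2.82e-10). KO against WT was -5.45 in liver (adjusted p = 3.05e-11) and 0.64 in muscle (adjusted p = 0.504), with a median count of 149 in WT and 3 in KO livers, and of 12 in WT muscle and 18 in muscle labelled KO. For the 10 glucocorticoid, metallothionein and FOXO target genes no interaction was called.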

How the results depend on the processing

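In WT and KO mice, 10 of the 10 genes kept their call between liver and muscle whichever mouse was left out. Without the mouse as block, pairing ignored, 9 were called in WT and 8 in KO mice, and the interaction of *Zbtb16* was 0.082. Scaling by library size alone moved the median of all genes in KO mice from -0.0161 to -0.145, and that of the interaction from -0.0339 to -0.121. Tested against a 2-fold change, 7571 genes were called in WT and 7644 in KO mice. With RPKM (pseudocount 0.1 or 1) the interaction called 2 and 2 genes and KO against WT in muscle 0 and 0 (968 and 970 at an unadjusted p under 0.05). DESeq2 called 6 genes in KO against WT liver. Leaving out 1 mouse gave 1 to 2 interaction genes, 2 without KO mouse 597. Without the 4 KO livers short of long-gene reads, 5 of 30 relations across mice were called. In livers below and above the largest step of *Zbtb16* its r with *Fkbp5* was 0.334 and 0.438 (permutation p = 0.244 and 0.377), an alternative chosen after seeing the data that lowers r by construction, since it cuts the range of *Zbtb16*.

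With gene length removed, *Cdkn1a* between the tissues turned to -0.05 in WT and -0.0826 in KO mice. The other turns in direction were in values that did not pass the test, and their cause was not tested. The interaction of *Cdkn1a* was -0.0616 with library size alone, -0.0326 with gene length removed, -0.056 and -0.0521 with RPKM and -0.0143 without the 4 livers. That of *Zbtb16* was 0.0138 with gene length removed and 0.555 without the 4 livers, and that of *Fbxo32* -0.0368 with library size alone and -0.0167 with RPKM. In KO against WT liver, *Zbtb16* was -0.0124 with library size alone and -0.319 and -0.122 with RPKM, and *Fbxo32* -0.0423, -0.0454 and -0.0149. In muscle, *Fkbp5* was 0.00367 with library size alone, *Sgk1* 0.0258 and 0.0247 with RPKM, and *Trim63* 0.00555 with library size alone, 1.01e-05 with size factors of DESeq2 in edgeR, 0.00298 with gene length removed and 5.17e-05 with DESeq2. The r of *Zbtb16* between tissues was -0.0213 without the 4 livers.

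Leaving out 1 mouse at a time, the interaction ranged from -0.0356 to 0.0732 for *Cdkn1a*, -0.488 to 0.106 for *Zbtb16*, -0.0615 to 0.158 for *Fbxo32* and -1.12 to 0.201 for *Trim63*. KO against WT ranged from -0.33 to 0.386 for *Zbtb16* and -0.0792 to 0.0743 for *Fbxo32* in liver. In muscle it ranged from -0.0612 to 0.0565 for *Fkbp5*, -0.00129 to 0.151 for *Tsc22d3*, -0.0729 to 0.237 for *Mt1*, -0.0481 to 0.301 for *Mt2*, -0.118 to 0.0772 for *Sgk1*, -0.0167 to 0.195 for *Cdkn1a*, -0.108 to 0.00418 for *Fbxo32*, -0.0995 to 0.0552 for *Trim63* and -0.131 to 0.0114 for *Klf15*. A count of 3 reads was 0.0852 to 0.149 CPM, which limits *Trim63* in liver.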

Other observations

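Among the genes whose levels followed each other between liver and muscle of the same mouse as closely as *Cdkn1a* did (r = 0.885, rank 4 of 11607), the ranks above and just under it were held by *Gm15446* (0.961), *Wbp1l* (0.896), *Igtp* (0.894), *Gbp4* (0.880), *Map3k6* (0.879) and *Usp2* (0.873). *Igtp* and *Gbp4* are interferon-induced GTPases. Of the 13 clock genes, *Per1* (0.759), *Ciart* (0.704), *Per2* (0.655), *Dbp* (0.649) and *Per3* (0.603) had the highest r between the tissues, while *Cry1* (0.0524) and *Nr1d1* (-0.109) were near the median of all genes (0.0825) or lower. *Per1* and *Per2*, which glucocorticoids can also induce, ranked 38 and 104, against 238 for *Klf15* and 273 for *Tsc22d3*. These values are descriptions over 22 mice with genotype means removed, picked after they were seen, and no time of death per mouse was used here.

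Between the tissues, 3 of the 13 clock genes were higher and 8 lower in liver of WT mice (median log2 fold change -0.64), against 44% and 44.2% of all genes and an overall median of 0.0012. *Per2* had a median of 20.1 CPM in liver and 5.38 CPM in muscle (log2 fold change 1.56, adjusted p = 6.7e-10). *Arntl*, the activator of the clock, had 13.2 CPM in liver and 41.8 CPM in muscle (-1.52, adjusted p = 3.9e-11). All 12 acute phase genes were higher in liver (median 7.38), as were 44% of all genes, with *Saa4* at 482 CPM and *Itih4* at 2030 CPM, and 0 of the 12 were called in KO against WT liver, where 0.0231% of all genes were.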
